A study of Mus musculus with 8 samples.

Results

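ETS transcription factors of epithelium and of prostate cancer were compared between the ventral prostate of transgenic mice and that of wild type mice. The set held the 10 gene symbols Elf3, Ehf, Elf5, Spdef, Ets1, Ets2, Etv1, Etv4, Etv5 and Erg, and every probe set annotated with 1 of these symbols alone was taken. This gave 16 probe sets for 9 genes, of 12393 named genes and 22626 probe sets on the arrays. Both Etv1 probe sets also carried the symbol of the gene model Gm5454, so no value below stands for Etv1 alone. The symbols were chosen from the ETS family with the transgenic against wild type values of these same 8 arrays already known, Elf3 among them. The differences and calls of the 10 genes are therefore given as a description of these arrays and support nothing further.

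The 4 transgenic arrays came from FVB mice aged 20 weeks in which a constitutively active form of the PI3-kinase catalytic isoform p110 beta was overexpressed and whose ventral prostate is labelled as mouse prostatic intraepithelial neoplasia (mPIN). The 4 wild type arrays came from the normal ventral prostate of FVB mice of the same age. The labels give neither the promoter that drives the transgene nor whether each array is a separate animal, so the spread between arrays may be partly technical.

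ETS factors share a DNA-binding domain that recognises a GGAA core, and differ in where they are expressed and in the signals that control them. Elf3, Ehf, Elf5 and Spdef form an epithelial group: Elf3 and Ehf act in differentiating glandular and surface epithelia, Elf5 in mammary alveolar and placental development, and Spdef in prostate and goblet cells. Etv1, Etv4 and Etv5 form the PEA3 group, which is induced by fibroblast growth factor and ERK signalling. Ets1 and Erg are prominent in endothelial and blood cells, and Ets2 is widely expressed and activated by ERK phosphorylation. In human prostate cancer, gene fusions place ERG, ETV1, ETV4 or ETV5 under androgen-responsive promoters.

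The promoter windows of Elf3 and Spdef are shown because these were the members with the most positive differences, and both windows hold the core that ETS proteins bind. Each runs from 250 bases before to 50 bases after the annotated start in RefSeq, build GRCm38.p6, written 5′ to 3′ on the gene's own strand, and capitals mark GGAA and its reverse complement TTCC. The Elf3 window lies at chr1:135258423-135258722 on the minus strand and the Spdef window at chr17:27728902-27729201 on the minus strand.
Elf3: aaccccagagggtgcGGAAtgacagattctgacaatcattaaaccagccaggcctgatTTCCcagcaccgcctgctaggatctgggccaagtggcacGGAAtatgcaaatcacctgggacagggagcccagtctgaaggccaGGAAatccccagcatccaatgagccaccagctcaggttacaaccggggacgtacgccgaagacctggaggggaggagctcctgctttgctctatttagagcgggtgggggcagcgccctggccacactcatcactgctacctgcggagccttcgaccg
Spdef: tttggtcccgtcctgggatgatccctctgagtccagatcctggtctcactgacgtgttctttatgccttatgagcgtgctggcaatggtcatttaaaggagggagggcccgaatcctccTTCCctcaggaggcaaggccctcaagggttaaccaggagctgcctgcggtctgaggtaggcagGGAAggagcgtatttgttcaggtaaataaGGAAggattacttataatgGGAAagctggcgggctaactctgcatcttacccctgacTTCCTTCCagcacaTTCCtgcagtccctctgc
The Elf3 window held 4 matches to GGAA, 3 on the strand shown and 1 on the other, and the Spdef window held 7, with 3 and 4. GGAA is short, and 96.0% of 32851 such windows held it on either strand, with a median of 3 matches. Windows with at least as many matches made up 46.3% of the total for Elf3 and 8.02% for Spdef. The longer GGAAG was absent from the Elf3 window and matched 5 times in the Spdef window, against 71.4% of all windows with a match, and CGGAAG, held by 16.9%, was in neither. These matches overlap by construction, and a match is not a binding site. The reference table held no window for Ehf, Ets1 or Etv4.

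Values are log2 RMA values, on which a difference of 1 is a doubling. Array medians lay between 5.40 and 5.51. As a guide to background, 95% of the values of 33 olfactory receptor probe sets, genes of nasal sensory neurons, lay below 5.28. Taken by array, this level was 4.91 to 5.26 in the transgenic arrays. It was 5.02, 5.26, 5.62 and 5.68 in wild type arrays 1, 2, 3 and 4. Its part in the differences of dim probe sets was not tested. Probe sets differ in brightness for the same amount of RNA, so levels are not compared between genes. Differences are transgenic minus wild type with the SE of a limma fit across all 22626 probe sets, and a gene passed at a Benjamini-Hochberg adjusted p under 0.05. A gene with several probe sets is represented by the one with the highest mean. Of the marker genes of ventral prostate, 4 of 7 were measured, and Spink1, Msmb, Pbsn and Hoxb13 all lay above every array median in both groups. The group means of all 6 seminal vesicle markers lay below every array median.

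Among the 9 measured genes, 3 rose, all of the epithelial group, 1 fell, Ets1, and 5 did not pass. Over all 12393 genes 5.99% rose and 4.98% fell. The median difference of the 9 was -0.11, against -0.04 for all genes. By probe set, 4 of 16 rose and 1 fell, where 5.48% and 4.36% of all probe sets did so. The groups did not overlap for the same number of genes, 3 higher and 1 lower, against 8.09% and 8.2% of all genes. Because the symbols were picked with this comparison known, nothing is read from these shares.

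**Figure D1:**
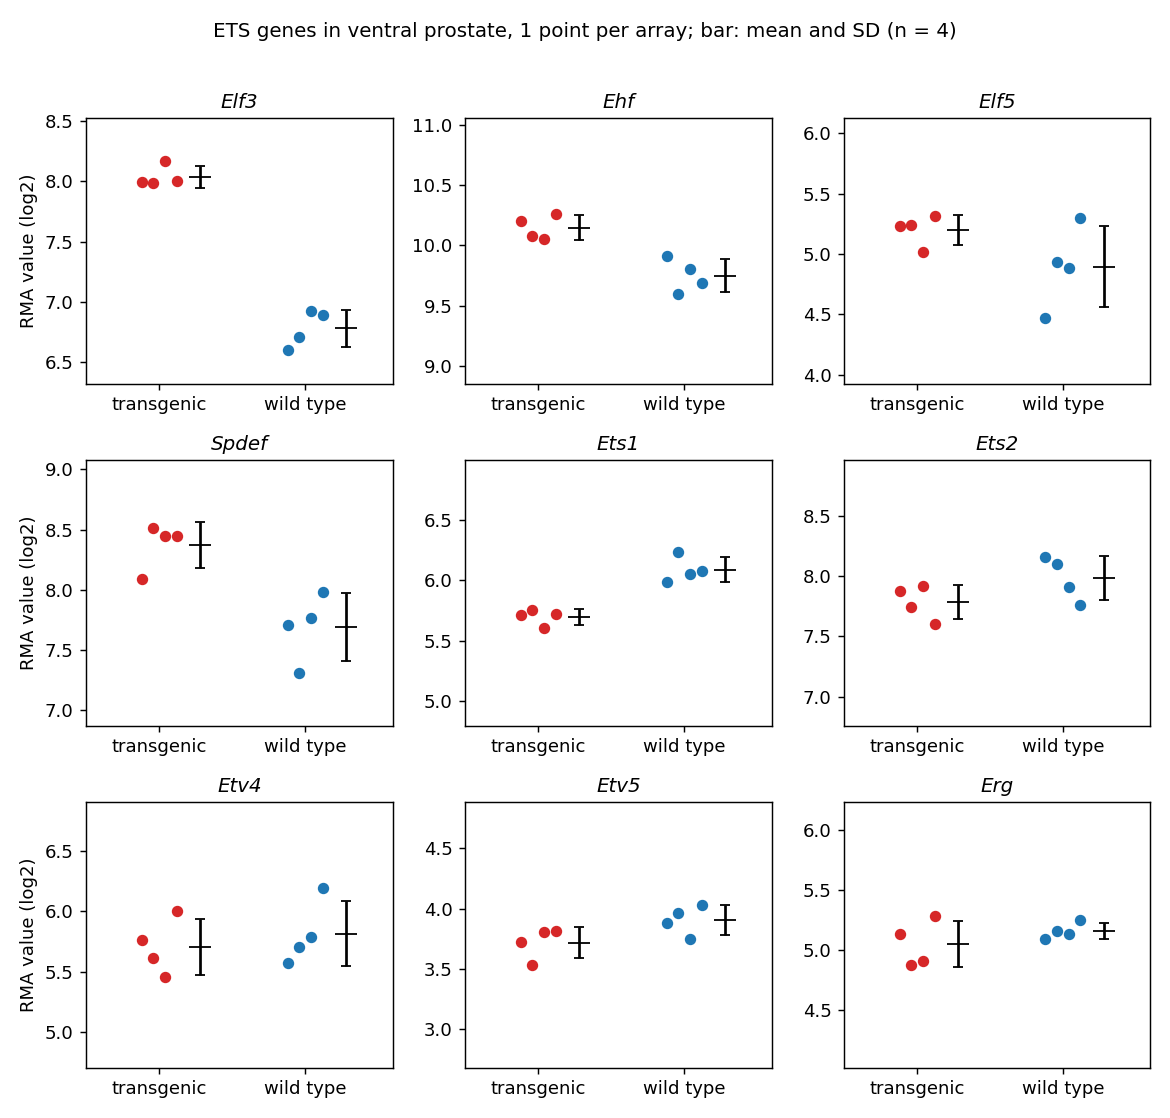
Log2 RMA values of the 9 measured ETS genes on the 4 transgenic (red, left) and 4 wild type (blue, right) arrays, with the mean and SD of each group; every panel spans the same range of log2 units. The groups are separate for Elf3, Spdef, Ehf and Ets1 and overlap for the other 5 genes.

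Elf3, an epithelial factor that inflammatory signals can also induce in other cells, had the largest difference of the set. Its values were 7.99, 7.98, 8.17 and 8.01 in the transgenic arrays, against 6.60, 6.71, 6.93 and 6.89 in the wild type arrays. Every transgenic array was thus above every wild type array, by more than the range within either group. The difference was 1.26 ± 0.11 (SE), a fold of 2.39 with a 95% interval from 2.04 to 2.80 (limma adjusted p = 1.99e-05), and it ranked 130 from the top of the 12393 genes. Elf3 has 1 probe set on these arrays, so no second measurement stands beside it. Neither coding neighbour of Elf3 on chromosome 1 passed, Gpr37l1 at -0.24 ± 0.22 and Rnpep at 0.07 ± 0.10 (SE).

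Spdef, which in human and mouse is expressed in prostate luminal cells and drives goblet cell maturation in airway and gut, also rose. Its values were 8.09, 8.51, 8.45 and 8.45 in the transgenic arrays, against 7.71, 7.31, 7.76 and 7.98 in the wild type arrays. The groups did not overlap, but transgenic array 1 and wild type array 4 were only 0.11 apart. The difference was 0.68 ± 0.15 (SE), a fold of 1.61 with a 95% interval from 1.28 to 2.01 (limma adjusted p = 0.0129). Its coding neighbours on chromosome 17 did not pass, Pacsin1 at -0.21 ± 0.14 and Ilrun at 0.26 ± 0.17 (SE).

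Ehf, a relative of Elf3 and Elf5 that is likewise restricted to epithelia, rose in 2 of its 3 probe sets. The brightest, 1451375_at, read 10.20, 10.07, 10.05 and 10.26 in the transgenic arrays, against 9.91, 9.59, 9.80 and 9.69 in the wild type arrays. Its groups were separate by 0.14, and the difference was 0.40 ± 0.10 (SE; limma adjusted p = 0.0315), a fold of 1.32. The second, 1419475_a_at, read 9.35, 9.20, 9.25 and 9.14 in the transgenic arrays, against 8.74, 8.71, 8.84 and 8.62 in the wild type arrays, also without overlap. Its difference was 0.51 ± 0.09 (SE; limma adjusted p = 0.00569), and it passed under 16 of 18 alternative settings, against 5 of 18 for the brightest. The third, 1419474_a_at, was the most variable of the 16 probe sets. It read 6.74, 8.07, 8.02 and 7.58 in the transgenic arrays and 7.33, 7.02, 6.48 and 6.16 in the wild type arrays, and transgenic array 1 lay within the wild type range. Its difference of 0.85 ± 0.31 (SE) had a 95% interval from 0.18 to 1.53 and did not pass (adjusted p = 0.119).

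Elf5 lies next to Ehf on chromosome 2 and did not pass. Its brighter probe set read 5.23, 5.24, 5.02 and 5.31 in the transgenic arrays, against 4.47, 4.93, 4.88 and 5.30 in the wild type arrays, so the groups overlapped and both means, 5.20 and 4.90, were under the 5.28 of the olfactory receptor probe sets. The difference was 0.30 ± 0.16 (SE), with a 95% interval from -0.04 to 0.65 (adjusted p = 0.304), and the second probe set was at 0.05 ± 0.11 (SE). On either side of this pair, Apip was at 0.07 ± 0.14 and Cat, encoding catalase, at 0.18 ± 0.15 (SE), and neither passed.

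**Figure D2:**
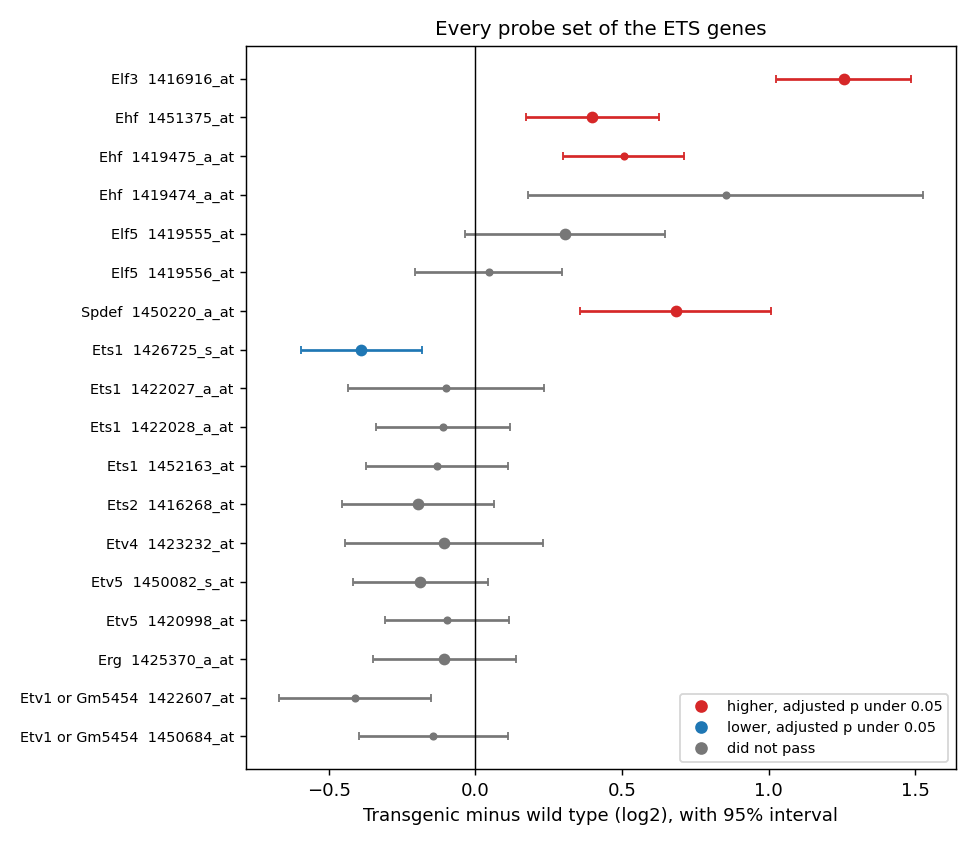
Transgenic minus wild type difference on the log2 scale with its 95% interval for the 16 probe sets of the 9 genes and the 2 probe sets named for both Etv1 and Gm5454; large points are the probe sets that represent a gene. Elf3, Spdef and 2 of 3 Ehf probe sets lie above 0 and passed, 1 of 4 Ets1 probe sets lies below 0 and passed, and the rest did not pass.

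Ets1, the founding member of the family, fell in 1 of its 4 probe sets. That probe set, 1426725_s_at, read 5.71, 5.75, 5.60 and 5.72 in the transgenic arrays, against 5.99, 6.23, 6.05 and 6.07 in the wild type arrays, without overlap. The difference was -0.39 ± 0.09 (SE; limma adjusted p = 0.0222), a level 1.31-fold higher in wild type. The other 3 probe sets had differences from -0.13 to -0.10, none passed, and their group means lay between 3.66 and 4.39, under the level of the olfactory receptor probe sets. The mean of all 4 gave -0.18 (adjusted p = 0.260). The suffix of 1426725_s_at marks a probe set that can match more than 1 transcript. Fli1, the neighbour of Ets1 on chromosome 9 and an endothelial and blood cell factor of the same family, was at -0.14 ± 0.13 (SE) and did not pass.

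Ets2 did not pass. It read 7.88, 7.75, 7.92 and 7.60 in the transgenic arrays and 8.16, 8.10, 7.91 and 7.76 in the wild type arrays, and the groups overlapped. The difference was -0.20 ± 0.12 (SE), with a 95% interval from -0.46 to 0.06 (adjusted p = 0.401). Erg, its neighbour on chromosome 16, read 5.13, 4.88, 4.91 and 5.28 in the transgenic arrays, against 5.09, 5.16, 5.13 and 5.25 in the wild type arrays. Its groups overlapped, at levels in the range of the olfactory receptor probe sets, and the difference was -0.11 ± 0.11 (SE; adjusted p = 0.673).

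None of the PEA3 group passed. Etv4 read 5.76, 5.61, 5.45 and 6.00 in the transgenic arrays and 5.57, 5.70, 5.79 and 6.19 in the wild type arrays. The ranges overlapped almost wholly, and the difference of -0.11 ± 0.15 (SE) had a 95% interval from -0.44 to 0.23 (adjusted p = 0.771). Its direction turned to higher without wild type array 4 (0.019), with the endothelial score as a covariate (0.048) and with the luminal score as a covariate (0.98), never passing. Both Etv5 probe sets lay between 3.48 and 4.03 on all arrays, within the background range, with differences of -0.19 ± 0.11 and -0.10 ± 0.10 (SE). Of the probe sets named for both Etv1 and Gm5454, 1422607_at read 4.27, 3.94, 4.00 and 4.02 in the transgenic arrays, against 4.33, 4.29, 4.65 and 4.60 in the wild type arrays. These values do not overlap but lie under the olfactory receptor level, and the difference of -0.41 ± 0.12 (SE) missed the threshold (adjusted p = 0.0511). The other, 1450684_at, was at -0.14 ± 0.12 (SE). At these levels, near background, a change in Erg, Elf5, Etv5 or Etv1 can be missed.

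The rest of the ETS family did not pass. Of 16 further family genes 15 were measured, and their differences lay between -0.21 and 0.33 with a median of 0.03. None had an unadjusted p under 0.05 in limma, and the groups overlapped for all 15. Over all 12393 genes 5.99% rose and 4.98% fell, and 2826 had an unadjusted p under 0.05. The groups did not overlap for 8.09% of all genes, higher, and 8.2%, lower. No set test was run, so nothing is read from the lack of calls in these short lists. The smallest p was that of Elf1, a lymphoid and epithelial factor, at 0.33 ± 0.21 (SE; adjusted p = 0.437), and 8 of the 15 had both group means below every array median. Of 11 cofactors and regulators 6 were measured and none passed in limma, with no unadjusted p under 0.05. Cic, a repressor of the PEA3 genes, was at -0.25 ± 0.13 (SE; adjusted p = 0.294), and Cop1, a ubiquitin ligase that degrades PEA3 proteins, was at 0.19 ± 0.13 (SE).

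Transcripts that follow ERK activity, which also drives the PEA3 genes, were listed as a further group. Of 11 listed, 10 were measured, 1 rose and 1 fell, and the other 8 missed the threshold, where 5.99% of all genes rose and 4.98% fell. An unadjusted p under 0.05 in limma was reached by 8 of the 10, in both directions, and by 2826 of all 12393 genes. Of the 10 differences, 4 were positive and 6 negative. The number called was 1 to 5 when single arrays were left out. It was 1 without wild type array 3, 4 without transgenic array 1 and 5 without wild type array 1. The list median was -0.22, against -0.04 for all genes. Dusp6, encoding a phosphatase that inactivates ERK, averaged 4.50 ± 0.05 in transgenic arrays and 5.33 ± 0.14 in wild type arrays (SD, n = 4 each), a difference of -0.83 (limma adjusted p = 0.000243). Both means lay below every array median, so its size is approximate. Spry1, an inhibitor of receptor tyrosine kinase signalling, averaged 7.48 ± 0.16 in transgenic arrays and 6.88 ± 0.25 in wild type arrays (SD, n = 4 each), a difference of 0.60 (limma adjusted p = 0.0165). Without wild type array 3 Spry1 missed the threshold (adjusted p = 0.0585), as it did with smooth muscle and fibroblast markers together as a stromal covariate (adjusted p = 0.0783). In that stromal fit its difference was 0.68 ± 0.19, against 0.60 ± 0.14 without the covariate (SE). With the luminal score as a covariate the Spry1 difference was -0.65 (adjusted p = 0.672).

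Goblet and secretory genes linked to Spdef in mouse airway and gut were partly higher. Of 11 listed, 10 were measured, 5 rose and 0 fell, and the remaining 5 missed the threshold. Over all genes 5.99% rose and 4.98% fell. The list median was 0.53, against -0.04 for all genes. Tff3 and Fcgbp, both proteins of mucus, differed by 7.09 ± 0.25 and 5.05 ± 0.21 (SE). Their rise was known when the list was drawn up. Creb3l4, a membrane-bound transcription factor that is androgen-induced in human prostate, averaged 7.34 ± 0.21 in transgenic arrays and 4.97 ± 0.08 in wild type arrays (SD, n = 4 each; limma adjusted p = 4.74e-07). Its relative Creb3l1 averaged 8.69 ± 0.18 in transgenic arrays and 7.97 ± 0.22 in wild type arrays (SD, n = 4 each; limma adjusted p = 0.00526). The Creb3l1 difference of 0.71 was 0.64 in that stromal fit (adjusted p = 0.0918) and 0.04 with the luminal score (adjusted p = 0.987), and passed in neither limma fit. Clca1, encoding a secreted goblet cell protein, differed by 1.29 ± 0.23 (SE; limma adjusted p = 0.00416), while its second probe set was at -0.02 ± 0.10 and the mean of both at 0.63 ± 0.13 (SE). The wild type means of Clca1, at 4.33, and of Creb3l4 lay below every array median, so the sizes of both differences are approximate. With the luminal score as a covariate Creb3l4 and Clca1 missed the threshold too (limma adjusted p = 0.332 and 0.368), and so did Dusp6 (0.669). Their differences in that fit were 2.14 ± 0.58, 3.26 ± 0.95 and -0.58 ± 0.48 (SE), in that order. Agr2, Foxa3, Muc5ac, Muc5b and Spink4 did not pass, with differences from -0.06 to 0.34.

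Some epithelial markers differed between the groups, in lists chosen with earlier results of these data known. Over all genes 5.99% rose and 4.98% fell. Luminal markers numbered 9, of which 5 rose and 0 fell while 4 missed the threshold, and their differences ranged from 0.04 to 1.18. Cd24a and Cdh1, a surface glycoprotein and the epithelial cadherin, had the largest, at 1.18 ± 0.12 and 0.82 ± 0.16 (SE). These are the brightest probe sets, and another Cd24a probe set was at 1.86 ± 0.12 (SE). By their brightest probe sets, Spdef and Ehf lay within the range of the 9 luminal markers. Elf3, at 1.26, lay above that range and below the other Cd24a probe set. Of 10 basal markers 4 fell, 0 rose and 6 did not pass, led by the keratin genes Krt15 at -1.32 ± 0.26 and Krt5 at -1.22 ± 0.14 (SE). The basal score lay between -0.27 and -0.14 in transgenic arrays and between 0.12 and 0.26 in wild type arrays. Its exact permutation p was 0.0286, or 0.0857 adjusted over 9 scores, and its part in the ETS differences was not tested. Of the 4 measured ventral prostate markers 2 fell and 0 rose. Msmb, encoding a secreted prostate protein, was at -1.72 ± 0.32 (SE; limma adjusted p = 0.00592) and Pbsn, the androgen-dependent secretory gene probasin, at -1.28 ± 0.22 (SE; limma adjusted p = 0.00361), while Spink1 at -0.33 and Hoxb13 at -0.14 did not pass. The score of these 4 genes lay between -0.89 and -0.17 in transgenic arrays and between 0.22 and 0.57 in wild type arrays (exact permutation p = 0.0286, or 0.0857 adjusted over 9 scores), and its part in the ETS differences was not tested. In bulk tissue, more cells of a type and more RNA per cell cannot be told apart.

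The luminal score, which averages each array's deviations from the mean of each of the 9 markers, lay between 0.22 and 0.29 in transgenic arrays and between -0.34 and -0.15 in wild type arrays (exact permutation p = 0.0286, the smallest 4 against 4 arrays allow, and 0.0857 adjusted over 9 scores). With this score as a covariate, the difference of Elf3 was 1.76 ± 0.50 and that of Spdef 2.01 ± 0.61 (SE), and neither passed (limma adjusted p = 0.353 and 0.391). That fit passed 16 genes as higher and 1 as lower over the whole table, and its standard errors were larger by a median factor of 4.77, since the score nearly coincides with the groups.

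Endothelial markers, relevant to Ets1, Erg and Fli1, gave no call in limma among 12 measured, and 2 had an unadjusted p under 0.05. Their score lay between -0.13 and 0.01 in transgenic arrays and between -0.26 and 0.25 in wild type arrays (exact permutation p = 0.229, or 0.343 adjusted), and 6 of the 12 lay below every array median in both groups. With it as a covariate, Ets1 was at -0.34 ± 0.10 (SE; limma adjusted p = 0.0585) and Ehf at 0.34 ± 0.11 (SE; limma adjusted p = 0.0851), so both missed the threshold, while Elf5 passed at 0.52 ± 0.11 (SE; limma adjusted p = 0.0174). Of 8 measured T cell markers none passed in limma, with no unadjusted p under 0.05, and 7 lay below every array median. The smooth muscle list had 1 lower gene of 10 past the threshold, Smtn at -0.70 ± 0.15 (SE). The fibroblast list had 2 of 10, Dcn at -1.15 ± 0.13 and Pdgfra at -0.74 ± 0.20 (SE). All 10 differences were negative in each list, with medians of -0.38 for smooth muscle and -0.49 for fibroblast, against -0.04 for all genes. An unadjusted p under 0.05 in limma was reached by 3 smooth muscle and 5 fibroblast markers. Over all genes 5.99% rose and 4.98% fell. The smooth muscle score lay between -0.44 and -0.06 in transgenic arrays and between -0.13 and 0.66 in wild type arrays, and the fibroblast score between -0.34 and -0.14 in transgenic arrays and between -0.26 and 0.88 in wild type arrays. Each of these scores had an exact permutation p of 0.0857, or 0.154 adjusted over 9 scores. With both lists as a stromal covariate Spdef was at 0.50 ± 0.19 (adjusted p = 0.224), Ehf at 0.27 ± 0.14 (adjusted p = 0.400) and Ets1 at -0.29 ± 0.13 (adjusted p = 0.308), SE in each case, and none of the 3 passed in limma, while Elf3 passed. The stromal fit raised standard errors by a median factor of 1.41. Over all genes it called 380 higher and 287 lower, against 742 and 617 without the covariate. Of 10 macrophage markers Mrc1 rose, by 2.27 ± 0.24 (SE), and 9 did not pass. Of the 10 differences 3 were positive and 7 negative, with a median of -0.23. The macrophage score lay between -0.06 and 0.06 in transgenic arrays and between -0.51 and 0.45 in wild type arrays (exact permutation p = 0.657, or 0.739 adjusted). The part of cell composition in the ETS differences was not tested beyond these fits.

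**Figure D3:**
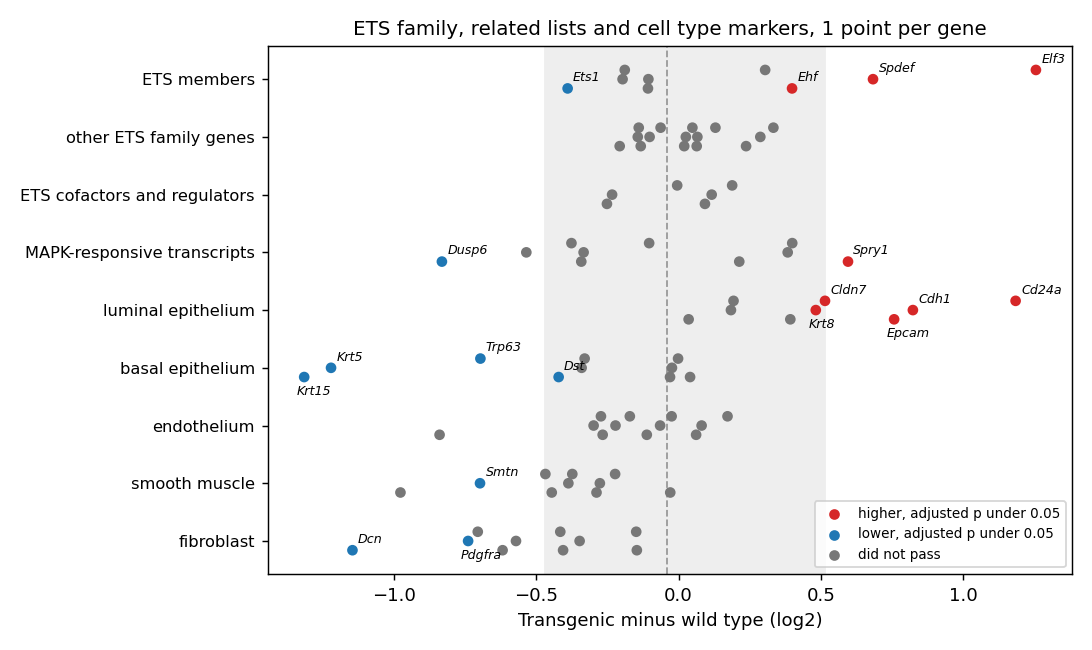
Transgenic minus wild type difference on the log2 scale, 1 point per gene, for the ETS genes, the rest of the family, related lists and cell type markers; the grey band spans the 5th to the 95th percentile of all genes (-0.47 to 0.51) and the dashed line is their median (-0.04). Elf3 and Spdef lie above the band, Ehf and Ets1 within it, and the 15 other ETS family genes all lie within it.

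Across alternative settings, Elf3 passed most often of the 4 called genes. Its difference stayed between 1.20 and 1.76 in 19 alternatives, and it passed in 18, the exception being the luminal covariate. Spdef passed in 17 of 19, missing with the luminal and the stromal covariate. Ehf passed in 6 of 19, of which 5 used its brightest probe set and the other the mean of all its probe sets (limma adjusted p = 0.00926). By its brightest probe set, Ehf missed the threshold without any one array other than wild type array 1 (adjusted p from 0.0534 to 0.0982), with differences from 0.35 to 0.45 when each array was left out. Ehf also missed it after cyclic loess (adjusted p = 0.0608) and quantile normalization (adjusted p = 0.0836). Ets1 passed in 8 of 19 and missed it without transgenic array 2, 3 or 4 or wild type array 2 or 3 (adjusted p from 0.0548 to 0.0780). No alternative turned the direction of these 4 genes by the probe set that represents them, while the third Ehf probe set was at -1.80 with the luminal score as a covariate and 2 of the other 3 Ets1 probe sets turned in 4 and 1 alternatives.

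**Figure D4:**
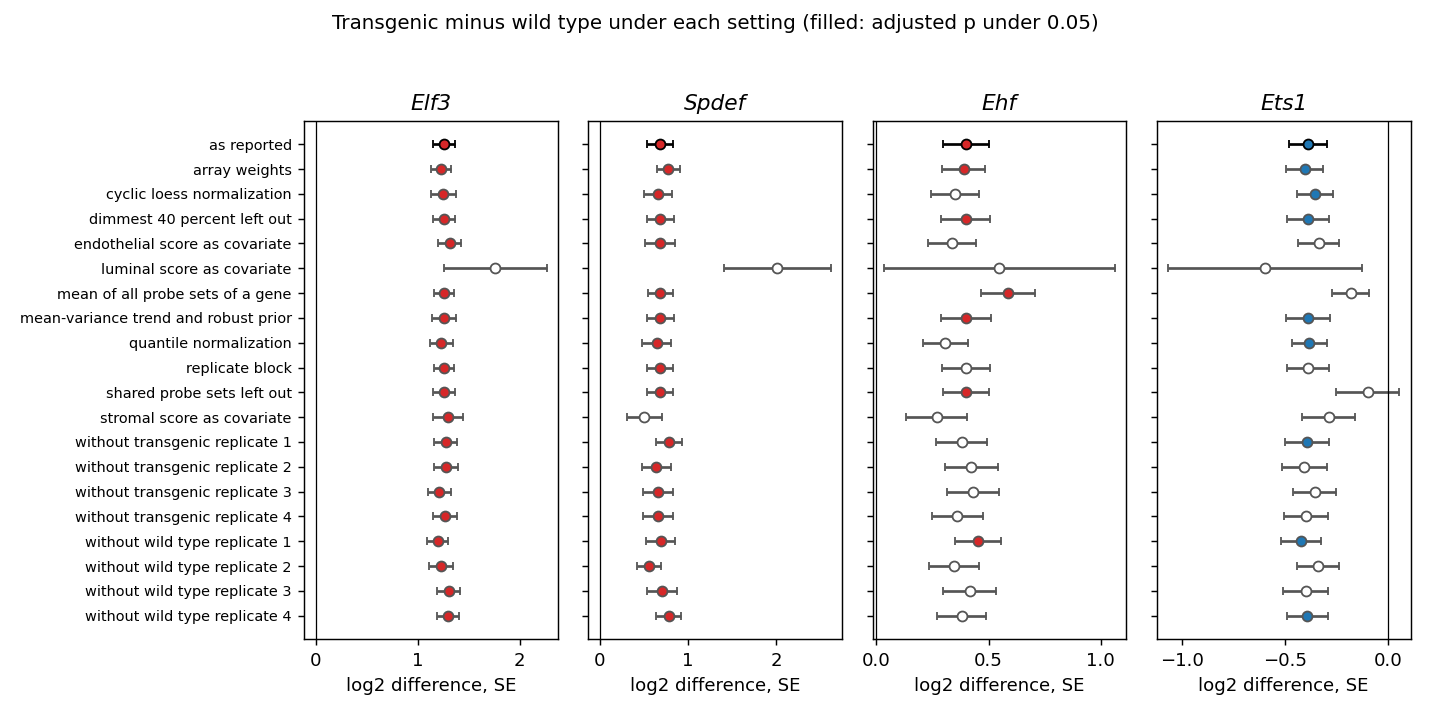
Difference on the log2 scale with its SE for Elf3, Spdef, Ehf and Ets1 as reported and under 19 alternative settings; filled points passed at an adjusted p under 0.05 and open points did not. Elf3 is filled in all alternatives but 1, while Ehf and Ets1 are open in 13 and 11 of the 19.

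The genes whose pattern over the 8 arrays was most like that of a member were found by Pearson correlation among the 12393 genes. Nearest to Elf3 were Serpinb1a, a protease inhibitor gene, Tmprss4, a membrane protease gene, and Lypd8, with r from 0.994 to 0.996, and from 0.78 to 0.88 when values were centred within each group. Nearest to Spdef were Dock9, St14, which encodes the membrane protease matriptase, and Cybc1, with r from 0.967 to 0.976 and centred r from 0.87 to 0.91. Nearest to Ets1 were Tspan6, Efemp1 and Ttc28, with r from 0.974 to 0.984 and centred r from 0.79 to 0.95. The arrays fall into 2 groups that these genes separate, and each correlation was picked as the highest among all genes on 8 points, so the values are descriptions.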

How the data were processed

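Ventral prostate RNA from 4 transgenic and 4 wild type FVB samples was measured on Affymetrix mouse arrays, 1 per sample, per the labels. The deposited table holds log2 values. RMA is the tool named for them per the submitters' processing notes, without a version; it corrects background, makes array distributions alike and summarises probes, so a shift shared by all transcripts would be removed. Each array was used, no pair within a group was a copy (correlations up to 0.996), and their number limits the precision.

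Of 22690 probe sets, 64 controls were left out. Symbols came from the platform annotation (20380 probe sets with 1, 691 with several, 1555 with none), updated by gene identifier through RefSeq GRCm38.p6. limma 3.58.1 under R 4.3.3 fitted all 22626 (lmFit, eBayes) with Benjamini-Hochberg adjustment. The fit was tested on simulated data. Score tests were exact two-sided permutation tests over 70 assignments.

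The members and lists were chosen with earlier results of these data known. Text names all members, up to 5 passing genes of each gene list (or the smallest p) and 2 of each marker list. Others named (Cop1, goblet genes that did not pass, Hoxb13, Spink1, Fli1 and chromosomal neighbours) were picked with their values in view.

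The alternatives tried were other normalizations, a filter on dim probe sets, a trend and robust prior, array weights, probe set rules, the replicate number as a block, marker scores as covariates, leaving out each array and stricter thresholds.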

Additional observations from a re-analysis of the deposited data

Results flagged for a closer look

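Of 32 sets of 4 arrays, 2 for each of the 16 probe sets, 3 held an array far from the other 3 by Dixon's test, where chance gives about 1 in 20. Transgenic array 3 was high for Elf3, at 8.17 against 7.98 to 8.01 in the other transgenic arrays, and without it the Elf3 difference was 1.21. Transgenic array 1 was low for Spdef, at 8.09 against 8.45 to 8.51, and without it the Spdef difference was 0.78. Wild type array 2 was high for the Ets1 probe set 1452163_at, at 4.04 against 3.70 to 3.73, at a level in the background range.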

How the results depend on the processing

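The count of higher ETS genes was 3, and fell to 0 with the luminal score as a covariate and to 1 with the stromal score, at an adjusted p of 0.01 and with a difference over 1 also required. With the endothelial score it was 3, with Elf5 in place of Ehf. Leaving out each array gave 2 to 3. The count of lower genes was 1, and was 0 with the endothelial, luminal or stromal score, with genes averaged over their probe sets, without shared probe sets, under both stricter rules and with the replicate block. Leaving out each array gave 0 to 1. Probe sets called numbered 5, with 0 under the luminal score, 1 under the stromal score, 3 with the replicate block and 3 to 5 leaving out arrays. In the ERK-responsive list 2 were called, with 6 under array weights, 4 by the mean of probe sets, 1 under the stromal score or at 0.01, 0 under the luminal score or with a difference over 1, and 1 to 5 leaving out arrays (4 without transgenic array 1, 5 without wild type array 1, 1 without wild type array 3). In the list linked to Spdef 5 were called, 2 under the luminal score. The directions of Etv4 (0.048 with the endothelial score, 0.98 with the luminal score, 0.019 without wild type array 4 and from -0.21 to 0.019 over the arrays left out) and Spry1 (-0.65 with the luminal score) turned. The cause was not tested. At the median, the luminal score raised standard errors 4.77-fold and the stromal score 1.41-fold.

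Whether replicate numbers pair the arrays was not settled. Same-numbered deviations correlated at -0.31, 0.24, -0.20 and 0.33, and 2 of 8 arrays correlated best with their own number. So few arrays cannot exclude a pairing. With the replicate block the Ehf and Ets1 calls missed the threshold (adjusted p = 0.0620 and 0.0543), at 0.40 and -0.39. Over all genes that fit gave 599 higher and 486 lower, against 742 and 617. Low signal limits Elf5, Etv5, Erg and the Etv1 probe sets. The called Ets1 probe set, with means of 5.70 in transgenic and 6.09 in wild type arrays, lay not far above background. The olfactory receptor level was 5.62 and 5.68 in wild type arrays 3 and 4, and 4.91 to 5.26 in transgenic arrays. Its part in the Ets1 difference was not tested.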
